A study of Homo sapiens with 32 samples.

Results

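The 8 genes described here encode readers of N6-methyladenosine (m6A): YTHDF1, YTHDF2, YTHDF3, YTHDC1, YTHDC2, IGF2BP1, IGF2BP2 and IGF2BP3. Members were all deposited m6A peaks that overlap the hg19 span of 1 of these genes, counted per gene and per library. That gave 337 of the 424904 peaks in the 6 libraries. The peaks came from PANC-1, an established cell line of human pancreatic ductal adenocarcinoma, in which total RNA was fragmented and precipitated with an antibody against m6A. The groups were cells labelled as a CFL1 knockout (cofilin 1, an actin-severing protein), cells labelled as a METTL3 knockout (the catalytic subunit of the m6A writer) and control cells, with 2 antibody libraries each. The labels do not say how the knockouts were made, whether each was 1 clone, or whether libraries of a group were separate cultures, so the spread within a group may be technical. Groups were taken from the sample titles, since a treatment label gives none for control libraries made with the antibody. Libraries carry the numbers in the peak names, which are 3 and 5 for each knockout and 1 and 2 for control. The knockout names also carry the letters si, and the loss of either protein cannot be checked from peak lists.

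Readers are the proteins through which an m6A mark acts on an RNA. The YTH domain holds the methylated base directly. YTHDF1, YTHDF2 and YTHDF3 are cytoplasmic and are known for effects on translation and, above all for YTHDF2, on decay of the bound RNA. YTHDC1 is nuclear and has been tied to splicing, export and chromatin-bound RNA, and YTHDC2 is an RNA helicase best known from meiosis in mice. IGF2BP1, IGF2BP2 and IGF2BP3 bind RNA through KH domains, are known for stabilising bound messages, and IGF2BP3 in particular is an oncofetal protein often found in pancreatic cancer. The transcripts of these genes can carry m6A themselves. The peaks mark where RNA bound by the m6A antibody mapped within the gene spans. In messenger RNA the mark is typically dense near stop codons and in long internal exons.

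Both knockouts held far fewer peaks in the reader genes than control, and most of the gap lay in IGF2BP3 and IGF2BP2. The 8 spans held 35 and 33 peaks in the CFL1 knockout libraries, 37 and 36 in the METTL3 knockout libraries, and 103 and 93 in the control libraries. The groups did not overlap. Relative to control, the mean was 0.347 in CFL1 knockout cells and 0.372 in METTL3 knockout cells. Exact two-sided permutation of 2 against 2 libraries gave p = 0.333 in both comparisons, the smallest value that this design allows, so no difference between 2 groups described here could pass a 5% threshold. All 4 knockout libraries against both control libraries gave an exact p of 0.0667, again the smallest possible.

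The whole libraries held 66295 to 72728 peaks in CFL1 knockout cells, 63859 and 64952 in METTL3 knockout cells, and 77603 and 79467 in control. Per 100000 peaks of the library, the reader genes held 48.1 and 49.8 peaks in CFL1 knockout cells, 57.9 and 55.4 in METTL3 knockout cells, and 133 and 117 in control. The gap in the reader genes was therefore wider than the gap between whole libraries. Read depth is unknown from peak lists. RNA levels were not examined, so fewer peaks do not separate less methylation from less RNA of a gene, or from fewer cells that make it. Without IGF2BP2 and IGF2BP3 the ratio to control was 0.635 in CFL1 knockout cells and 0.714 in METTL3 knockout cells. Counting stronger peaks alone, at a −log10 q of 10 or more, where q is the peak caller's false discovery rate, the ratio was 0.51 in CFL1 knockout cells and 0.57 in METTL3 knockout cells.

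The numbers in the peak names skip values, so peaks with those numbers are not in the lists, for reasons not given in the sources used here. Over whole libraries the skipped share was 50.2% and 42.0% in CFL1 knockout cells, 44.0% and 41.8% in METTL3 knockout cells, and 22.5% and 28.6% in control, so it was uneven between groups. The numbers run in order along each chromosome that holds a reader gene, so skipped peaks can be placed between listed ones. Between the first and the last listed peak of each gene, summed over the 8 genes, 4 and 1 numbers were skipped in CFL1 knockout cells, 2 and 3 in METTL3 knockout cells, and 9 and 6 in control. Between the nearest listed peaks outside each span, the sums were 41 and 48 in CFL1 knockout cells, 32 and 25 in METTL3 knockout cells, and 13 and 8 in control. These outer counts take in peaks that may lie within or beside the spans. For YTHDC1 they were 15 and 7 in CFL1 knockout cells, 6 and 4 in METTL3 knockout cells, and 0 and 0 in control. In IGF2BP3, even between the nearest listed peaks outside the span, 2 and 1 were skipped in CFL1 knockout cells, 1 and 0 in METTL3 knockout cells, and 1 and 2 in control. What part unlisted peaks have in the gaps between groups was not tested. For YTHDF2 the same outer count was 5 and 5 in CFL1 knockout cells, 2 and 0 in METTL3 knockout cells, and 2 and 0 in control, though none of these was skipped between the 2 listed knockout peaks.

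**Figure D1:**
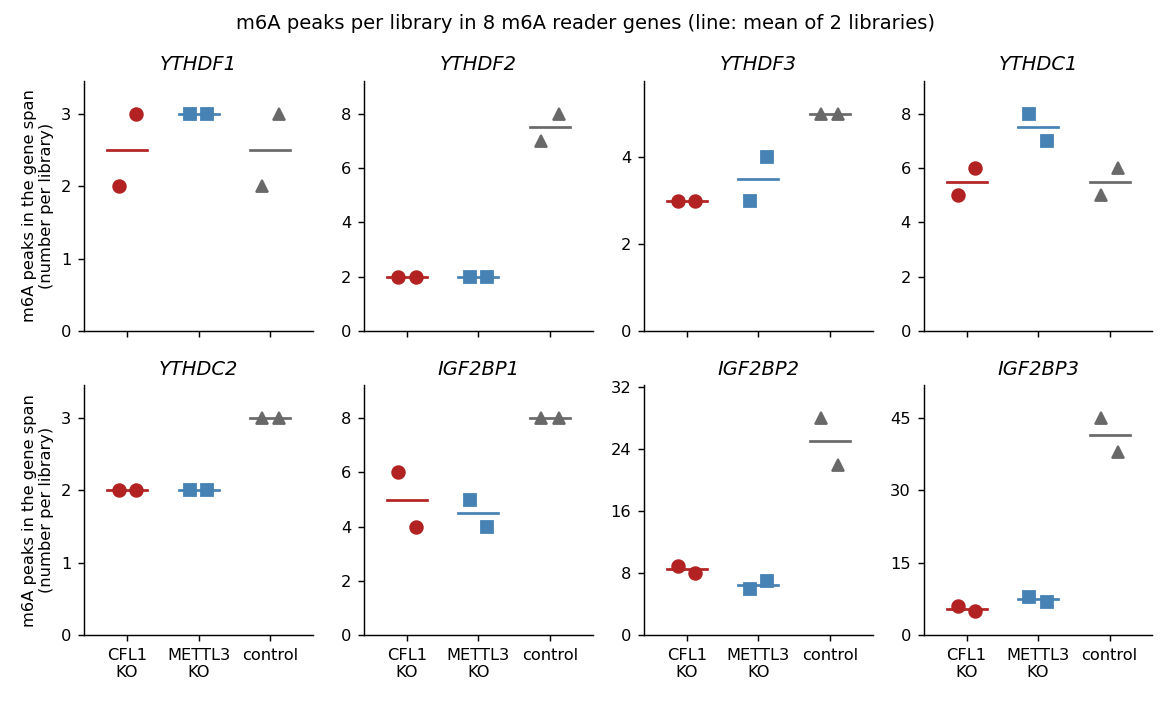
Number of m6A peaks (vertical axis) that overlap each reader gene, per library, in CFL1 knockout (KO) cells, METTL3 knockout cells and control, with a line at the mean of 2 libraries and a separate scale for each gene. IGF2BP3 had 5 to 8 peaks in the 4 knockout libraries and 45 and 38 in control, while the groups overlapped in YTHDF1.

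In 6 of the 8 genes both CFL1 knockout libraries held fewer peaks than both control libraries, which is true of 35.7% of the 100-kb windows of the genome with at least 12 peaks over the 6 libraries. The same 6 genes were set apart in METTL3 knockout cells, where the background is 38.3%. These were YTHDF2, YTHDF3, YTHDC2, IGF2BP1, IGF2BP2 and IGF2BP3. The reverse, more peaks in both knockout libraries than in both control libraries, was seen in no gene for CFL1 (background 25.1%) and for METTL3 in YTHDC1 alone (background 22.8%). In YTHDC1 this rested on a site that was split into more peaks in METTL3 knockout cells than in control, as described below. Windows and gene spans differ in length, and the 2 comparisons share the control libraries. Over the windows, the median ratio of the 4 knockout libraries to control was 0.909, and 5% of windows lay below 0.167. The ratio in IGF2BP3 was 0.157, in YTHDF2 0.267 and in IGF2BP2 0.30. Taking all 4 knockout libraries against control, the same 6 genes were lower without overlap (30.2% of windows) and none was higher (15.5%). Where peaks had to reach a −log10 q of 5, 3 genes were lower (24.5%), namely YTHDF2, IGF2BP2 and IGF2BP3, and 0 were higher (16.7%). Where they had to reach 10, 4 were lower (17.7%), these and IGF2BP1, and 1 was higher (18.5%), YTHDC1.

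The cytoplasmic YTHDF genes held 3 sites in YTHDF1, 9 in YTHDF2 and 7 in YTHDF3. A site is here a run of peaks from any of the 6 libraries that overlap by at least 1 bp, and the strongest site of a gene is the one with the highest −log10 q. YTHDF1 (chromosome 20, 61826781 to 61847586, 20.8 kb) held 2 and 3 peaks in CFL1 knockout cells, 3 and 3 in METTL3 knockout cells, and 2 and 3 in control. The groups overlapped, and all its peaks fell into 3 sites. Its strongest site, 61833640 to 61835303, lay 13.1 kb from the 5′ end of the span and had a −log10 q of 103 and 161 in CFL1 knockout cells, 233 and 235 in METTL3 knockout cells, and 126 and 170 in control. The caller's fold enrichment at that site was 3.65 and 4.24 in CFL1 knockout cells, 5.72 and 7.03 in METTL3 knockout cells, and 3.44 and 3.75 in control. Such values are the authors' own, and q can vary with depth, so they are set side by side here and not tested.

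YTHDF2 (chromosome 1, 29063133 to 29096287) held 2 peaks in each of the 4 knockout libraries, against 7 and 8 in the control libraries. The 2 peaks of the knockouts lay at the same 2 sites in every library. The stronger one, at 29068858 to 29070803, had a −log10 q of 172 and 253 in CFL1 knockout cells, 278 and 327 in METTL3 knockout cells, and 95.2 and 134 in control. The other lay at 29095247 to 29095825, 32.4 kb into a span of 33.2 kb, and was also called in all 6 libraries. Between them, control held 4 further sites in both libraries that no knockout library held. The strongest of these, at 29076134 to 29076866, reached 31.6 in control 1 and 17.1 in control 2, with folds of 7.60 and 5.70. The next 2 were at 29080703 to 29081484 (20.4 in control 1 and 6.93 in control 2) and at 29087967 to 29088263 (11.8 and 11.6).

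YTHDF3 (chromosome 8, 64081112 to 64125346) held 3 and 3 peaks in CFL1 knockout cells, 3 and 4 in METTL3 knockout cells, and 5 in each control library. Its main site at 64098529 to 64100338 was called in all 6 libraries, with a −log10 q of 194 and 262 in CFL1 knockout cells, 329 and 316 in METTL3 knockout cells, and 297 and 379 in control. A second site at 64122043 to 64122739 had 145 and 130 in CFL1 knockout cells, 164 and 133 in METTL3 knockout cells, and 161 and 259.9 in control. Folds at the main site were 8.42 and 7.89 in CFL1 knockout cells, 10.4 and 11.0 in METTL3 knockout cells, and 6.90 and 6.98 in control. At the second site they were 24.1 and 11.4 in CFL1 knockout cells, 7.25 and 6.96 in METTL3 knockout cells, and 4.64 and 5.63 in control. By fold, both sites were therefore higher in every knockout library than in control, unlike by −log10 q. The gene also gave 1 of the 4 sites that every knockout library held and control lacked. That site, 64081024 to 64081360, straddles the 5′ end of the span, from −0.088 to 0.248 kb relative to it, and reached 44.6 and 35.5 in CFL1 knockout cells and 28.4 and 43.8 in METTL3 knockout cells. In control, 3 sites between 8.32 and 12.2 kb from the 5′ end, with −log10 q of 2.48 to 23.0, were absent from every knockout library.

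**Figure D2:**
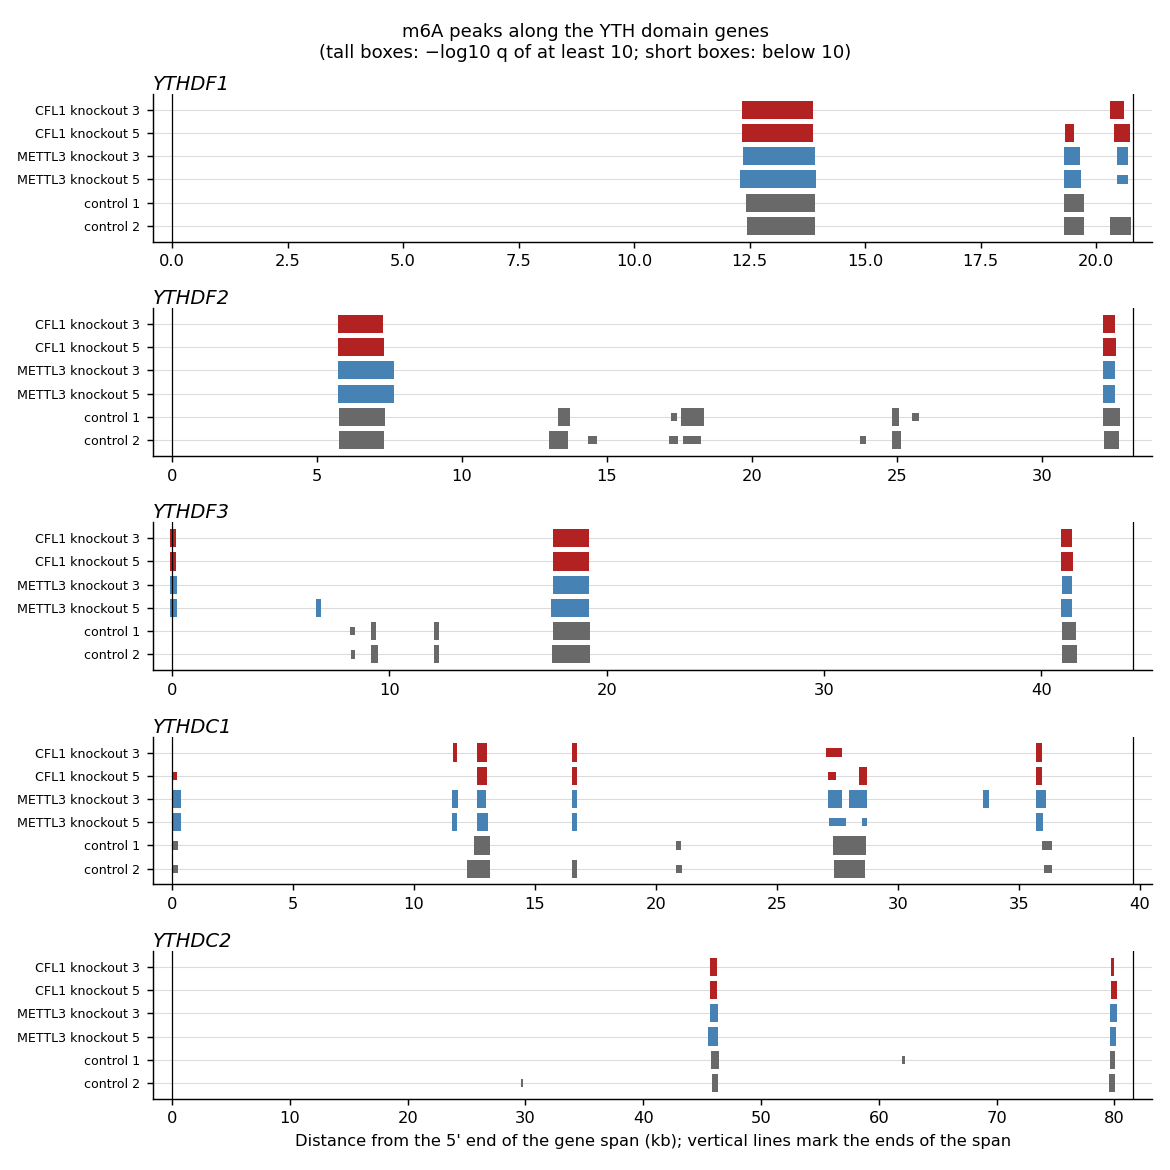
Peaks along the 5 YTH domain genes, by distance from the 5′ end of the gene span (horizontal axis, kb), with a line of boxes per library; tall boxes have a −log10 q of at least 10, and boxes under 0.2% of the span are drawn at that width. The strongest site of each gene lines up in all 6 libraries, and in YTHDF2 the boxes between the 2 outer sites are in the control libraries alone.

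The nuclear reader YTHDC1 was the gene with more peaks in METTL3 knockout cells than in control, though not when counted by site. The gene (chromosome 4, 69176105 to 69215824) held 5 and 6 peaks in CFL1 knockout cells, 8 and 7 in METTL3 knockout cells, and 5 and 6 in control. By peaks, the groups did not overlap for METTL3 knockout cells, with a mean ratio of 1.36 to control and an exact p of 0.333. This rested on the site at 69187102 to 69188807. Both METTL3 knockout libraries held 2 peaks there, as did CFL1 knockout 5, while each control library held a single broad peak. Counted by site, METTL3 knockout cells and control overlapped. Among peaks that reach a −log10 q of 10, YTHDC1 held 4 and 4 in CFL1 knockout cells, 8 and 5 in METTL3 knockout cells, and 2 and 3 in control. The ratio to control was then 1.6 in CFL1 knockout cells and 2.6 in METTL3 knockout cells, neither overlapped control, and the exact p was 0.333 for each. Counting these stronger peaks by site left both knockouts apart from control as well. The covered length did not follow, at 3138 and 2482 bp in METTL3 knockout cells against 2824 and 3249 bp in control, and it was lower without overlap in CFL1 knockout cells, at 1714 and 1672 bp. At 69179455 to 69180140, 36.03 kb from the 5′ end of a span of 39.7 kb, the −log10 q was 55.9 and 101 in CFL1 knockout cells and 222 and 104 in METTL3 knockout cells, against 3.06 and 6.11 in control. At that site the CFL1 knockout peaks and the control peaks lay side by side and shared no base. They were joined into a site only through METTL3 knockout peaks, so its CFL1 knockout and control values belong to different intervals. The split site at 69187102 to 69188807 had 5.53 and 13.9 in CFL1 knockout cells, 24.5 and 4.82 in METTL3 knockout cells, and 37.8 and 38.6 in control. The strongest site of the gene, 69202673 to 69203643, was called in all 6 libraries, at 150 and 108 in CFL1 knockout cells, 220 and 279 in METTL3 knockout cells, and 98.8 and 89.8 in control. Folds at this site were 3.07 and 2.48 in CFL1 knockout cells, 3.66 and 4.82 in METTL3 knockout cells, and 3.99 and 3.17 in control. CFL1 knockout cells thus lay above control by −log10 q and below it by fold. At the 5′ end, 69215460 to 69215832, the METTL3 knockout libraries had 58.1 and 64.0, CFL1 knockout 5 had 5.62 and CFL1 knockout 3 had no peak, against 3.33 and 9.71 in control. A control site at 69194757 to 69195001 (3.88 and 9.25) was not called in any knockout library.

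YTHDC2 (chromosome 5, 112849391 to 112930982) held 2 peaks in each knockout library and 3 in each control library, and the third peak of control was a different, weak one in each library (−log10 q of 2.41 and 2.37). Between the nearest listed peaks outside this gene's span, 11 and 20 numbers were skipped in CFL1 knockout cells, 12 and 10 in METTL3 knockout cells, and none in control, so unlisted peaks may lie within the span in the knockouts. Both remaining sites were called in all 6 libraries, but their order by −log10 q within a library changed. The site at 112894896 to 112895783, 45.9 kb from the 5′ end, had the higher −log10 q in all 4 knockout libraries, with 92.0 and 121 in CFL1 knockout cells and 103 and 100.4 in METTL3 knockout cells, against 28.4 and 65.2 in control. The site at 112928927 to 112929623, 79.9 kb along a span of 81.6 kb, had the higher −log10 q in both control libraries. It had 13.8 and 10.3 in CFL1 knockout cells, 38.9 and 34.7 in METTL3 knockout cells, and 55.0 and 80.1 in control. Folds at the first site were 22.9 and 19.8 in CFL1 knockout cells, 17.5 and 16.3 in METTL3 knockout cells, and 6.71 and 12.7 in control. At the second site they were 4.12 and 3.02 in CFL1 knockout cells, 5.83 and 6.03 in METTL3 knockout cells, and 5.72 and 5.68 in control. By fold, the first site was therefore the higher in all 6 libraries, and the order did not change.

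IGF2BP genes held most of the peaks in control. Their 3 spans make up 400.3 kb and the 5 YTH spans 219.5 kb. IGF2BP genes held 21 and 17 peaks in CFL1 knockout cells, 19 and 18 in METTL3 knockout cells, and 81 and 68 in control. YTH genes held 14 and 16 in CFL1 knockout cells, 18 and 18 in METTL3 knockout cells, and 22 and 25 in control. The IGF2BP share of the reader peaks was 55.8% ± 6.0 in CFL1 knockout cells, 50.7% ± 0.956 in METTL3 knockout cells and 75.9% ± 3.91 in control (SD, n = 2 libraries each). The exact two-sided permutation p was 0.333 for each knockout against control and 0.0667 for the 4 knockout libraries together, the smallest values possible.

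IGF2BP1 (chromosome 17, 47074774 to 47133507) held 6 and 4 peaks in CFL1 knockout cells, 5 and 4 in METTL3 knockout cells, and 8 in each control library. Its strongest site covered the 5′ end of the span, 47074509 to 47075412, and was called in all 6 libraries, at 93.7 and 42.3 in CFL1 knockout cells, 12.3 and 54.0 in METTL3 knockout cells, and 63.8 and 76.5 in control. A second site lay 39.6 kb along, at 47114028 to 47114807, with 22.9 and 31.7 in CFL1 knockout cells, 51.1 and 24.7 in METTL3 knockout cells, and 25.3 and 23.2 in control. Around 26.6 to 36.7 kb from the 5′ end, 4 sites were called in both control libraries and in no knockout library, the strongest at 47103651 to 47104396 (25.2 and 15.7). The knockouts had sites of their own here too. At 47093927 to 47094149 both CFL1 knockout libraries had a peak (2.17 and 4.28), and at 47113554 to 47113820 both METTL3 knockout libraries had one (5.98 and 4.71), with none in the other 4 libraries in either case. These 2 are weak. In RefSeq the lncRNA LOC124904020 overlaps IGF2BP1 by 15219 bases. Peaks carry no strand, so those in the shared part may belong to either.

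IGF2BP2 (chromosome 3, 185361527 to 185542827, 181.3 kb) showed few of the scattered gene-body peaks of control when either gene was knocked out, and carried sites at both ends that control lacked. It held 9 and 8 peaks in CFL1 knockout cells, 6 and 7 in METTL3 knockout cells, and 28 and 22 in control. Relative to control the mean was 0.34 in CFL1 knockout cells and 0.26 in METTL3 knockout cells. Peaks covered 2996 and 2795 bp of the span in CFL1 knockout cells, 2241 and 2132 bp in METTL3 knockout cells, and 9255 and 7156 bp in control. The strongest site, 185361354 to 185361964, lay at the 3′ end and was called in all 6 libraries, with a −log10 q of 45.4 and 63.5 in CFL1 knockout cells, 114 and 88.2 in METTL3 knockout cells, and 107 and 133 in control. Beside it, 185362212 to 185362540 was called in every knockout library (39.5 and 44.4 in CFL1 knockout cells, 54.6 and 46.4 in METTL3 knockout cells) and in neither control library. Both control libraries held 14 sites that no knockout library held. They ran from 14.4 to 172 kb from the 5′ end, and the strongest was 185518990 to 185519340, at 27.4 in control 1 and 6.36 in control 2. Next were 185370559 to 185370912 (21.0 and 22.2) and 185528303 to 185528628 (15.6 and 20.2).

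The other 2 knockout sites of IGF2BP2 lay at its 5′ end. The site at 185541729 to 185542430 had 39.2 and 20.1 in CFL1 knockout cells and 6.54 and 13.2 in METTL3 knockout cells. The site at 185542635 to 185543640 reached from −0.813 to 0.192 kb relative to the 5′ end, and had 26.4 and 53.9 in CFL1 knockout cells and 24.2 and 11.7 in METTL3 knockout cells. No control peak overlapped either. The 250 bases before the outermost annotated start of the gene are shown because this second site covers the 5′ end of the gene span. Its peaks differ in reach, and that of CFL1 knockout 5 ran only from −0.127 to 0.148 kb. The bases marked below therefore need not lie under the peak of every knockout library. They are RefSeq sequence of GRCh38.p14, chr3:185825043-185825292, minus strand, matched by gene symbol and not by converting the hg19 position of the peak. Capitals mark GGACT, a common form of the m6A consensus, and its reverse complement AGTCC.
IGF2BP2 promoter: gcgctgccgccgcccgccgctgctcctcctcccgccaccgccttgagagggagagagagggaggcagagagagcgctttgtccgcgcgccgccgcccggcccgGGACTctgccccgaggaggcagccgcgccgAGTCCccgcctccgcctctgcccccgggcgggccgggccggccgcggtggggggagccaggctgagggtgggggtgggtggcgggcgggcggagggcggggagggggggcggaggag
GGACT begins 147 bases before the start, and AGTCC 117 bases before it. GGACT or AGTCC is present in 37.7% of the 35116 RefSeq promoter windows of this length, so the match describes the sequence and marks no methylated base. Peaks carry no strand, and the lncRNA IGF2BP2-AS1 overlaps the gene in RefSeq, so the transcript behind these peaks cannot be told apart from the files.

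IGF2BP3 (chromosome 7, 23349828 to 23510086, 160.3 kb) showed the widest gap of the 8 genes. It held 6 and 5 peaks in CFL1 knockout cells, 8 and 7 in METTL3 knockout cells, and 45 and 38 in control. The mean relative to control was 0.133 in CFL1 knockout cells and 0.181 in METTL3 knockout cells. Per 100 kb of span this was 3.74 and 3.12 peaks in CFL1 knockout cells, 4.99 and 4.37 in METTL3 knockout cells, and 28.1 and 23.7 in control, where YTHDF2 had 6.03 in each knockout library and 21.1 and 24.1 in control. Peaks covered 2.39% and 2.6% of the span in CFL1 knockout cells, 2.74% and 2.85% in METTL3 knockout cells, and 11.2% and 9.75% in control. The control peaks were spread over the gene, as 28 sites held by both control libraries and by no knockout library had centres from 9.08 to 150 kb from the 5′ end. The strongest of them lay at 23394962 to 23395538 (−log10 q of 51.7 in control 1 and 54.9 in control 2), at 23429287 to 23429623 (21.2 and 47.1) and at 23393722 to 23393933 (25.8 and 35.8). RefSeq lets the 3′ end of IGF2BP3 overlap the gene MALSU1 by 1521 bases, so peaks there may belong to either.

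The strongest sites of IGF2BP3 were called in every library, and their order by −log10 q within a library changed. At 23454040 to 23455563, 55.3 kb from the 5′ end, the −log10 q was 502 and 436 in CFL1 knockout cells and 362 and 312 in METTL3 knockout cells, against 133 and 110 in control. At 23437477 to 23438843, 71.9 kb along, it was 81.6 and 149 in CFL1 knockout cells, 133 and 104 in METTL3 knockout cells, and 141 and 172.8 in control. The first thus had the highest −log10 q of the gene in all 4 knockout libraries and the second in both control libraries. Folds at the first site were 13.7 and 10.3 in CFL1 knockout cells, 13.4 and 12.5 in METTL3 knockout cells, and 10.1 and 6.93 in control. At the second they were 14.5 and 20.1 in CFL1 knockout cells, 14.3 and 13.7 in METTL3 knockout cells, and 10.6 and 11.2 in control. By fold, the second site was the higher in all 6 libraries, and the order did not change.

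**Figure D3:**
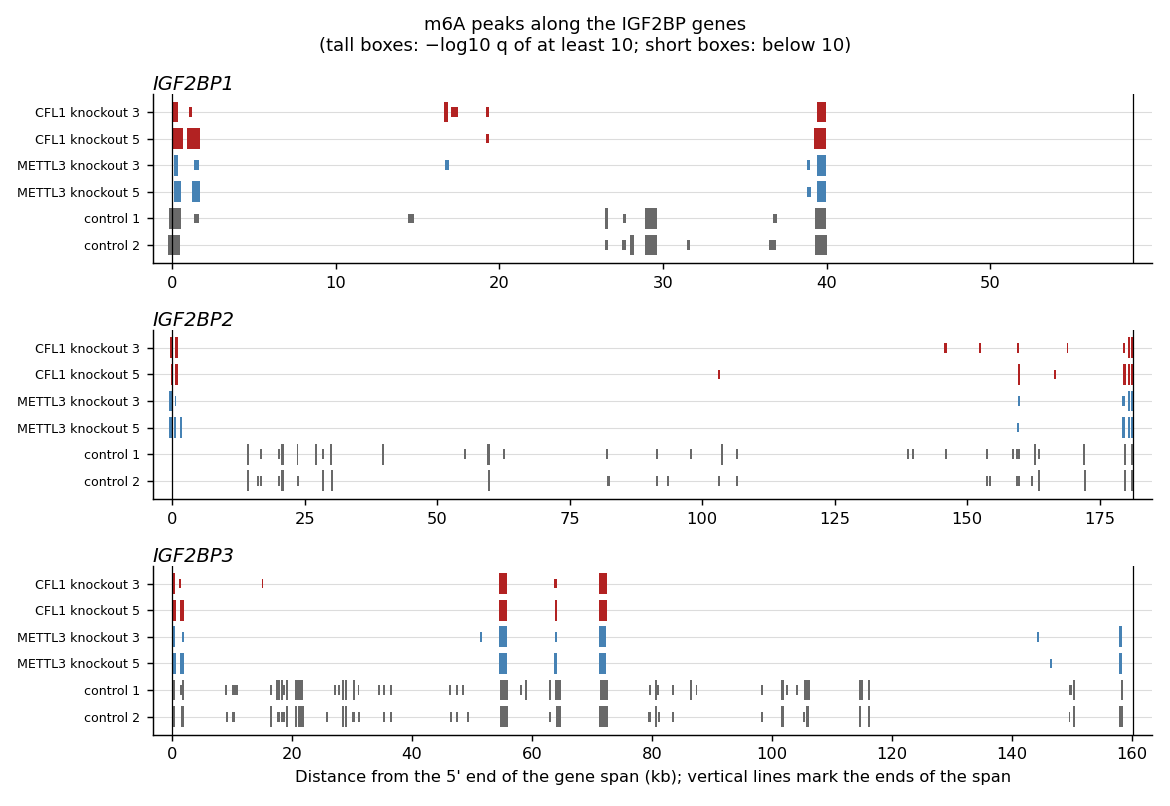
Peaks along the 3 IGF2BP genes, by distance from the 5′ end of the gene span (horizontal axis, kb), with a line of boxes per library; tall boxes have a −log10 q of at least 10, and boxes under 0.2% of the span are drawn at that width. In IGF2BP2 and IGF2BP3 the control libraries show boxes over much of the span, while the knockout libraries show few boxes, at sites that control mostly shares or, in IGF2BP2, at the ends.

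Over the 8 genes the peaks formed 135 sites. Of the 128 with a peak in CFL1 knockout cells or control, 55 (43.0%) were in both control libraries and neither CFL1 knockout library, against 17.3% of such sites over the genome. In the opposite direction 5 sites (3.91%) were in both CFL1 knockout libraries and in neither control library, against 9.88% over the genome. For METTL3 knockout cells, 54 of 129 sites (41.9%) were in control alone by this rule, against 18.3%, and 6 (4.65%) were in METTL3 knockout cells alone, against 10.5%. Of the 55, IGF2BP3 held 29, IGF2BP2 14, IGF2BP1 and YTHDF2 4 each, YTHDF3 3 and YTHDC1 1. Sites of a gene share a transcript and are not independent, so no test was made over them. Over all 4 knockout libraries, 54 sites (40.0%) were in both control libraries and no knockout library (13.3% over the genome), and 4 (2.96%) were in every knockout library and absent from control (3.63%). For CFL1 knockout cells the sites of control alone were 35 where peaks reach a −log10 q of 5 (15.9% of sites over the genome), 21 at 10 or more (14.7%) and 13 at a fold of 4 or more (12.4%). For METTL3 knockout cells they were 34 (17.3%), 20 (15.2%) and 13 (12.9%). The number of reader sites tested was not taken at these thresholds, so these counts are not shares to set against the genome. Sites of CFL1 knockout cells alone numbered 4 at a −log10 q of 5 (12.3%), 5 at 10 (14.7%) and 2 at a fold of 4 or more (11.5%). Those of METTL3 knockout cells alone numbered 5 (12.9%), 6 (15.6%) and 4 (13.3%).

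Sites were also described by width and strength. A site in more libraries joins more peaks and takes its highest −log10 q from more values, so it comes out wider and stronger in part by construction, and the values are given beside those over the genome. The 20 sites called in all 6 libraries had a median width of 896 bp and a median −log10 q, taken from the strongest library, of 119. Over the genome the medians for such sites were 1093 bp and 101. The 54 sites of both control libraries and no knockout library had a median width of 326 bp and a median −log10 q of 11.4, against 357 bp and 9.56 over the genome. Of the 20 shared sites, 3 had their centre in the first 10% of the gene span, 11 between and 6 in the last 10%. Of the 54 control sites, 4 lay in the first 10%, 46 between and 4 in the last 10%. The part between makes up most of each span, so an even spread would also put most sites there. These shares were not computed for other genes. Which of these sites are exonic or intronic was not analysed here. The strongest site of each of the 8 genes was called in all 6 libraries. This too follows in part from the choice by highest −log10 q in any library, and the share for other genes was not computed.

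**Figure D4:**
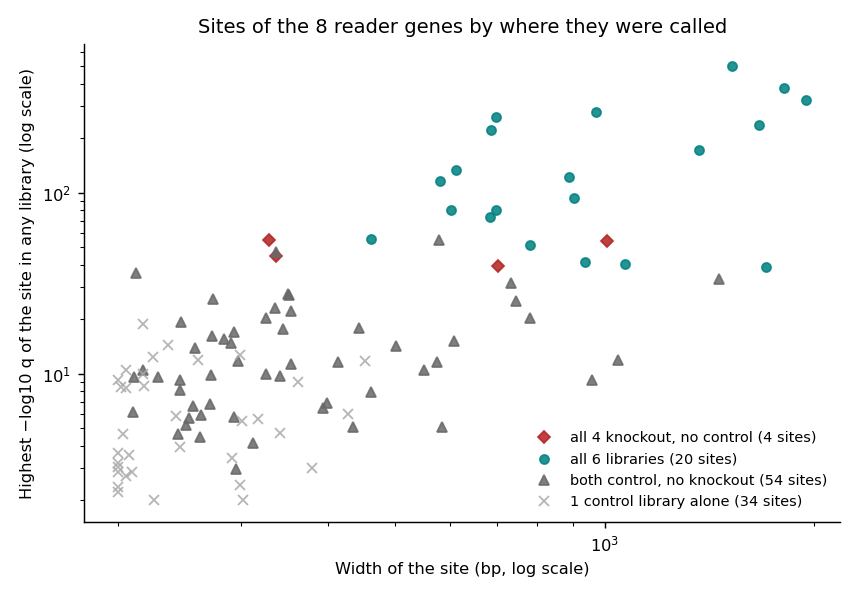
Width (horizontal axis, bp, log scale) and highest −log10 q in any library (vertical axis, log scale) of the sites of the 8 reader genes, for 4 patterns of calling. The sites of all 6 libraries lie at the upper right, from 462 to 1946 bp and 38.6 to 502, and the sites of both control libraries and no knockout library range from 2.98 to 54.9; a site in more libraries is wider and stronger in part by construction.

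Control sites were also grouped by strength and counted where no knockout library held them, with no test. Of sites called in both control libraries with a highest control −log10 q from 10 to below 20, 17 of 17 in the reader genes were in no knockout library, against 56.4% of 11832 over the genome. From 20 to below 50 it was 12 of 18 (66.7%), against 35.1%. From 5 to below 10 it was 20 of 23 (87.0%), against 66.8%, and below 5 it was 4 of 4, against 71.3%. At 50 and above it was 1 of 15 (6.67%), against 6.63%. IGF2BP3 alone gave 9 of the 17, 5 of the 12 and the single site at 50 and above, so these shares lean on 1 gene.

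**Figure D5:**
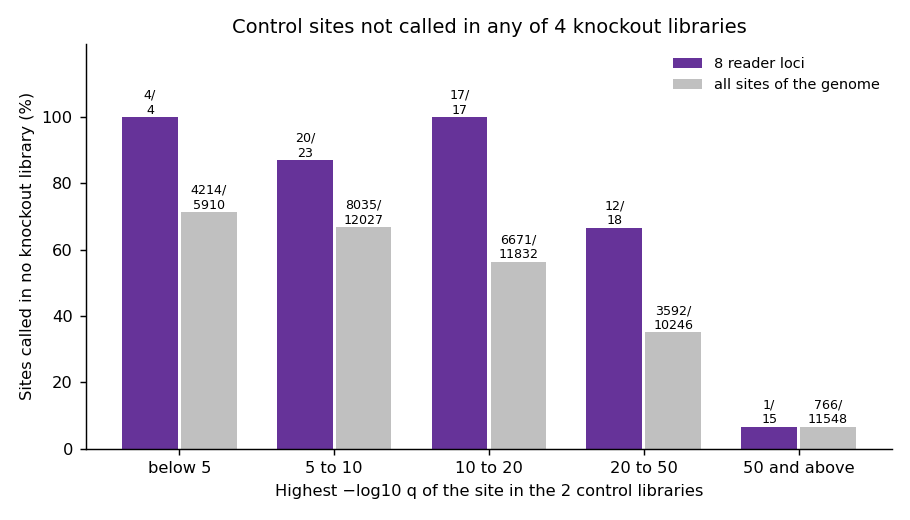
Share of sites called in both control libraries that no knockout library called (vertical axis, %), by the highest −log10 q in control (horizontal axis), for the 8 reader genes and for all sites of the genome; numbers above the bars give sites missing over sites in the bin. The 2 bars are level at 50 and above, at 6.67% and 6.63%, and the bar of the reader genes is higher in the other 4 bins.

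The knockouts were also set against each other. The CFL1 knockout held 0.932 times the peaks of METTL3 knockout cells, with an exact p of 0.333. The libraries separated in 3 genes. IGF2BP2 had more peaks in CFL1 knockout cells (9 and 8) than in METTL3 knockout cells (6 and 7), which is true of 19.9% of genome windows. YTHDC1 (5 and 6 against 8 and 7) and IGF2BP3 (6 and 5 against 8 and 7) had fewer, which is true of 14.8%. Of 47 sites with a peak in either knockout, 1 was in both CFL1 knockout libraries alone, against 5.55% over the genome, and 2 were in both METTL3 knockout libraries alone, against 5.39%. With peaks that reach a −log10 q of 5, this gave 0 in CFL1 knockout cells (6.64% over the genome) and 1 in METTL3 knockout cells (5.94%). At 10 or more there were 0 in CFL1 knockout cells (7.02%) and 2 in METTL3 knockout cells (6.98%). The site of CFL1 knockout cells was the weak one of IGF2BP1 at 47093927 to 47094149.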

How the data were processed

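m6A peaks were analysed for 3 groups of PANC-1 cells, behind which stand 12 of the 32 samples in the labels (antibody and input). Nuclear RNA and cytochalasin D samples were not analysed here. Per the submitters' processing notes, reads were aligned with STAR to hg19 and peaks called with MACS2, and bedtools was used. For versions, settings and the role of input in the calls, nothing was given in the sources used here. The authors deposited 1 peak list per group, with a fold enrichment (a ratio) and a −log10 q for each peak, beside its interval and summit. Each list joins peaks called separately in 2 libraries, per the peak names. Gene spans are the hg19 intervals that defined the members.

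Peaks overlapping a span were counted per library with Python 3.11.15 and pandas 2.3.3. Peaks of all libraries that share at least 1 bp were joined into sites over the genome, and a site was compared between groups by presence in both libraries of 1 group and no library of the other. Windows of 100 kb entered with at least 12 peaks over the 6 libraries. Orientation came from RefSeq for 6 genes and from general knowledge for YTHDF3 and IGF2BP1. Groups were compared by exact permutation of libraries. Alternatives were stricter peaks by −log10 q or fold, summits inside the span, scaling to the library, joining within 100 bp, leaving out each library and leaving out IGF2BP2 and IGF2BP3. The code for sites was tested on simulated data. Skipped numbers in the peak names were counted after the values were seen. All members are named. Named sites are the strongest of each gene, then, by highest −log10 q, up to 3 of both control libraries alone, up to 3 of all 4 knockout libraries alone and up to 2 of 1 knockout alone; sites shared by all 6 libraries were added after their values were seen, as were further sites of YTHDC1. Genes, sites and lists were chosen with earlier results of these data known. Other m6A-binding proteins were not counted, since an hg19 annotation was not used here. No depth is known from peak lists, and no count of reads was available to set a precision.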

Additional observations from a re-analysis of the deposited data

How the results depend on the processing

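No paired analysis was possible because the numbers 3 and 5 in the names of knockout peaks match no replicate number of the labels. Peaks per library in the 8 genes, relative to control, gave 0.330 to 0.366 for CFL1 knockout cells and 0.354 to 0.392 for METTL3 knockout cells when each library was left out in turn. Covered length gave 0.412 to 0.444 and 0.450 to 0.485. These ratios stayed below 1 at a −log10 q of at least 5 or 10, at a fold of 4 or more, per 100000 peaks and without IGF2BP2 and IGF2BP3, the last an alternative chosen after seeing the data. Counts of sites moved in part. Sites of control alone numbered 55 for CFL1 knockout cells and 54 for METTL3 knockout cells, against 35 and 34 at a −log10 q of 5 or more, 21 and 20 at 10 or more, and 13 and 13 at a fold of 4 or more. Sites of CFL1 knockout cells alone numbered 5, then 4 at a −log10 q of 5, 5 at 10 and 2 at a fold of 4 or more. Sites of METTL3 knockout cells alone numbered 6, then 5, 6 and 4. Set against METTL3 knockout cells, sites of CFL1 knockout cells numbered 1, and 0 at a −log10 q of 5 and at 10. Sites of METTL3 knockout cells, set against CFL1 knockout cells, numbered 2, then 1 at 5 or more and 2 at 10 or more. Genes in which all knockout libraries lay below control numbered 6, and 3 at a −log10 q of 5 or more. With each library left out in turn, sites of control alone ranged from 55 to 78 for CFL1 knockout cells and from 54 to 78 for METTL3 knockout cells. Sites of the knockout alone ranged from 6 to 11 for CFL1 and from 7 to 10 for METTL3. Between the knockouts, they ranged from 1 to 6 for CFL1 and from 3 to 5 for METTL3. Such counts grow by construction, since a site then has to be in 1 library of a group and not in 2. The share over the genome under that rule was not computed, so these ranges show nothing particular to the reader genes. A summit inside the span, or joining peaks within 100 bp, changed none of these counts of sites. Read depth, which limits weak peaks most, is unknown.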

Other observations

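Peaks were also counted beside the genes, in stretches as long as the gene itself. Every knockout library held fewer than both control libraries on at least 1 side of IGF2BP2, IGF2BP3, YTHDF2 and IGF2BP1. Over the genome this is true of 30.2% of the 100-kb windows with at least 12 peaks. The stretches differ from these windows in length and in number of peaks, so the gaps beside the genes are described and not tested. Downstream of IGF2BP2 there were 12 and 20 peaks in CFL1 knockout cells, 16 and 16 in METTL3 knockout cells, and 43 and 34 in control. Upstream of IGF2BP3 there were 7 and 8 in CFL1 knockout cells, 7 and 6 in METTL3 knockout cells, and 29 and 17 in control. On its downstream side, IGF2BP3 had 6 and 6 in CFL1 knockout cells, 7 and 6 in METTL3 knockout cells, and 11 and 9 in control. YTHDF2 had 1 peak upstream in each knockout library and 3 in each control library, and none downstream in any library. IGF2BP1 had 1 and 1 upstream in CFL1 knockout cells, 0 and 0 in METTL3 knockout cells, and 3 and 3 in control. YTHDC1 had no peak on either side in any library. Beside YTHDF1, YTHDF3 and YTHDC2 the groups overlapped on both sides. Upstream of YTHDF1, for example, there were 3 and 2 peaks in CFL1 knockout cells, 2 and 3 in METTL3 knockout cells, and 2 and 4 in control.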
